A study of Mus musculus with 4 samples.

Results

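DNA replication and mitosis genes were examined as a set of 36 genes, from the helicase that opens replication origins to the kinases, cyclins and kinetochore proteins of mitosis. They were taken by symbol from a table of 52636 gene rows, all 36 were found, and all 36 passed the filter on low counts that left 18998 genes. The RNA came from C2C12, a mouse myoblast line whose cells leave the cell cycle and fuse into myotubes when they differentiate. There were 2 sesaminol libraries, from cells given 50 µM sesaminol (SML, a lignan of sesame seed) during differentiation in adipogenic medium lasting up to 8 days, and 2 control libraries, from cells kept in that medium without it. Whether the 2 libraries of each group are separate cultures is not stated, so p-values measure the spread between these samples only, which may be technical. The myoblast genes Des and Myod1 were expressed in every library (1580 to 3230 and 139 to 364 CPM, that is counts scaled to the size of the library). Of 7 adipocyte markers, Adipoq, Lep and Cidec stayed under 1 CPM, while Plin1 ranged over 0.522 to 2.38 CPM, Fabp4 over 1.12 to 3.38 CPM, Pparg over 10.7 to 16.1 CPM and Cebpa over 24.5 to 55.9 CPM. Pparg and Cebpa were higher in both sesaminol libraries than in either control, and neither passed the test (edgeR adjusted p = 0.491 and 0.0652). Fabp4 and Adipoq were lower in both sesaminol libraries than in either control. Fabp4 did not pass either (edgeR adjusted p = 0.357), and Adipoq was too low to be tested. Of all genes tested, 24.2% lay above both controls and 22.8% below both.

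Proliferating cells load the Mcm2 to Mcm7 helicase onto origins in G1, with the help of Cdc6. E2F factors then switch on the genes of DNA synthesis, and in G2 the FoxM1, B-Myb and MuvB proteins switch on those of mitosis. Cdk1 with cyclin B drives entry into mitosis, and the anaphase promoting complex, with Cdc20 and Ube2c, ends it by marking cyclin B and securin for destruction. Differentiating myoblasts withdraw from this cycle, while a share of C2C12 cells stays behind as undifferentiated reserve cells.

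The promoters of mitotic genes are known for an element called CHR, read here as TTTGAA, and for CCAAT boxes, and those of replication genes for E2F sites, read here as the core TTCCCGC, as a variant spelt TTGGCGC and as another variant spelt TTCGCGC. Windows of 300 bases (250 before to 50 after the start of the gene; RefSeq, GRCm38.p6) were given for 30 of the 36 genes and searched on both strands. Mitotic genes held CHR in 13 of 17 windows (76.5%) and replication and G1/S genes in 1 of 13 (7.69%), against 20.2% of the windows of 27025 genes. A CCAAT box stood in 15 of the 17 mitotic windows (88.2%) and 8 of the 13 replication windows (61.5%), against 41.1% of all windows. For E2F cores the shares were 3 of 17 mitotic windows (17.6%), 6 of 13 replication windows (46.2%) and 9.2% of all windows. These matches are descriptions of letters in a window and not of binding.

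**Figure D1:**
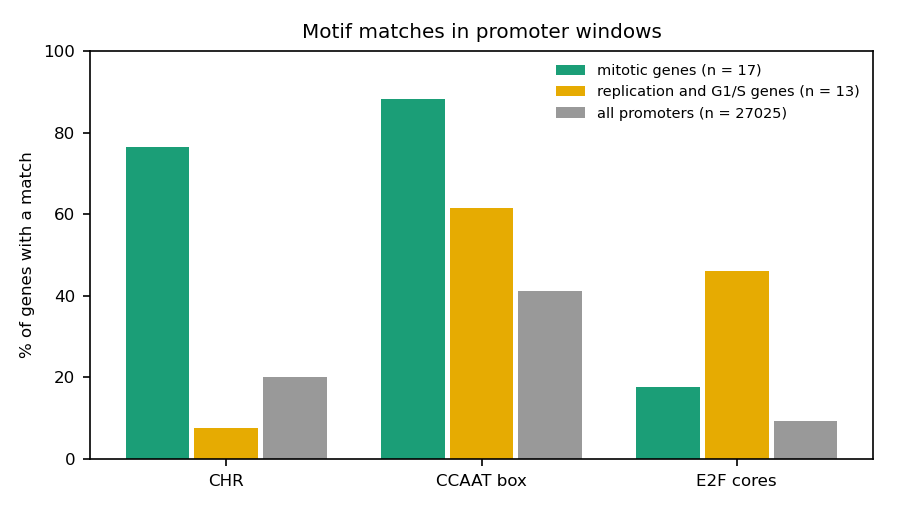
Share of genes (%, vertical axis) whose 300-base promoter window held a CHR, a CCAAT box or an E2F core, for mitotic genes, replication and G1/S genes, and all genes with a window. CHR was found in 76.5% of mitotic and 7.69% of replication windows, against 20.2% of all windows.

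The promoters below belong to the mitotic genes with a window that differed most between the sesaminol libraries. Capitals mark CHR, CCAAT and E2F matches on either strand, and each sequence runs 5′ to 3′ on the strand of its gene. They lie at chr17:71526808-71527107 (minus strand) for Ndc80, chr13:100786437-100786736 (minus) for Ccnb1, chr2:127831810-127832109 (minus) for Bub1, chr7:122159185-122159484 (plus) for Plk1 and chr7:135716330-135716629 (minus) for Mki67. Mki67 held 2 CHR matches and Plk1 and Ndc80 had 1 each. The windows of Ccnb1 and Bub1 showed no TTTGAA on either strand and carried CCAAT boxes. Other spellings of CHR were not searched.
Ndc80: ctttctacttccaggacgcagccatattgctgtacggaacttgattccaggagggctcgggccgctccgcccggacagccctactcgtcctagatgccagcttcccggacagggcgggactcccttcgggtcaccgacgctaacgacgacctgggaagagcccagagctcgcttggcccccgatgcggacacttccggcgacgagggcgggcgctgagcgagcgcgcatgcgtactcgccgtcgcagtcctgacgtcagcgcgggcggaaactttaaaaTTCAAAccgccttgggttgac
Ccnb1: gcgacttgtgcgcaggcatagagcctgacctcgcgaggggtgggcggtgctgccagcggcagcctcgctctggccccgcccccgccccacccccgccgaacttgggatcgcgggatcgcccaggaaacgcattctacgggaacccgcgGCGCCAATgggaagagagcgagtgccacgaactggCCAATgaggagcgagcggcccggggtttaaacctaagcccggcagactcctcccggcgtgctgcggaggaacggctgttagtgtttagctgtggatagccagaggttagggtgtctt
Bub1: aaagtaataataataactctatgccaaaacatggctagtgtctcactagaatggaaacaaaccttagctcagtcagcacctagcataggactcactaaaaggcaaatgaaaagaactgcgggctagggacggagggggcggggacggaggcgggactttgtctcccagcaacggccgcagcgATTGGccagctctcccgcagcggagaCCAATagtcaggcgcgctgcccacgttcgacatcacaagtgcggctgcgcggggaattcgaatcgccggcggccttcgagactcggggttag
Plk1: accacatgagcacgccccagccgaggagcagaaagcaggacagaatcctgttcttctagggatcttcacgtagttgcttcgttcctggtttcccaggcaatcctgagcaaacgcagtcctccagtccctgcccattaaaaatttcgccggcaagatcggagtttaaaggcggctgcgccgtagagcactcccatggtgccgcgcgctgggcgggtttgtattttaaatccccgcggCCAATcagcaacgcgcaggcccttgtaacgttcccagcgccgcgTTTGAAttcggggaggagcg
Mki67: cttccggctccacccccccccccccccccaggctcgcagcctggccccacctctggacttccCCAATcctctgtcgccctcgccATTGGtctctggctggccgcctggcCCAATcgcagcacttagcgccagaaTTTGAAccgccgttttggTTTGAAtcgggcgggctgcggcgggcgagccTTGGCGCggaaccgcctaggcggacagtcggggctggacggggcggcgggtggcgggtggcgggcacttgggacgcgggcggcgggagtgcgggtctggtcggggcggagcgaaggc

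The next promoters are those of Mcm5 and Cdc6, the replication genes that differed most between the sesaminol libraries, and of Pcna, the single member that was higher in sesaminol replicate 2 (chosen after its values were seen). Their places are chr8:75109259-75109558 (plus strand) for Mcm5, chr11:98907901-98908200 (plus) for Cdc6 and chr2:132253131-132253430 (minus) for Pcna. Mcm5 held 3 E2F core matches and 3 CCAAT boxes, Cdc6 an E2F core and Pcna a CCAAT box. In Mcm5 the matches TTCGCGC at -152 and GCGCCAA at -149 overlap in the stretch TTCGCGCCAA.
Mcm5: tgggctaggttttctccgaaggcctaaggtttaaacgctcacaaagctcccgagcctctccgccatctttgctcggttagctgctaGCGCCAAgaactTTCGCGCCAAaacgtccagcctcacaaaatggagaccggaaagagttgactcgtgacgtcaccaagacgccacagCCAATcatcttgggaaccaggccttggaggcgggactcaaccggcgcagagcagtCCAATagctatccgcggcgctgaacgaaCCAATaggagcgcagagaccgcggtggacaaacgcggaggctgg
Cdc6: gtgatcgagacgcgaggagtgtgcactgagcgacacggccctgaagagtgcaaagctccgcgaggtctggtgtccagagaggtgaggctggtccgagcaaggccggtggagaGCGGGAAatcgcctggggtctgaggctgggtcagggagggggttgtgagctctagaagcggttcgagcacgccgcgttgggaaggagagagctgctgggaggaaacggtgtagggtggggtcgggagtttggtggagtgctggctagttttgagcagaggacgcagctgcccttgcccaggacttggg
Pcna: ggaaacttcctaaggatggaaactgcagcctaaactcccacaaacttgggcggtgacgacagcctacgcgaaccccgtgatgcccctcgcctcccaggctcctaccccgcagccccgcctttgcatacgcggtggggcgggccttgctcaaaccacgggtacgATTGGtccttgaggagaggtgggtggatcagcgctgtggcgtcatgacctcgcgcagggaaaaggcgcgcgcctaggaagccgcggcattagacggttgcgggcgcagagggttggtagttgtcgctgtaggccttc

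The libraries differed in more than their treatment. Total counts were 15807638 and 24362899 in sesaminol replicates 1 and 2 and 10283135 and 14083165 in control replicates 1 and 2. Sesaminol replicate 2 stood apart, with 1.44% of its counts from mitochondrial genes against 2.95% to 3.36% in the other libraries and with 31253 genes counted against 26531 to 27336. Each library is given apart because the 2 sesaminol libraries disagree, which was known when the set was chosen. Between the sesaminol libraries the log2 ratio had a median of 0.01 over all genes tested.

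Over the treatment as a whole, 35 of the 36 genes did not pass the test and Ube2c was the exception. In the comparison of both sesaminol with both control libraries, 1 of the 36 fell and 0 rose, where 3.24% of all genes tested fell and 2.72% rose (quasi-likelihood test of edgeR, with p adjusted by Benjamini-Hochberg over all genes and a threshold of 0.05). The same counts were 2 and 0 by DESeq2 and 1 and 0 by limma-voom, and 6 of the 36 had an unadjusted p under 0.05 in edgeR, as did 17.9% of all genes tested. The members' median log2 fold change was -0.45, against 0.02 over all genes tested. Below 0 lay 30 of the 36 members, and 9054 of the 18998 genes tested. The groups did not overlap for 12 members: both sesaminol libraries were below both controls for 9 and above them for 3, where 22.8% and 24.2% of all genes did so. With sesaminol replicate 2 left out, the median was 0.14 and 2 fell and 2 rose. With sesaminol replicate 1 left out, it was -1.11, and 25 fell and 1 rose. In bulk RNA, fewer cycling cells and less of these transcripts in each cell cannot be told apart.

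**Figure D2:**
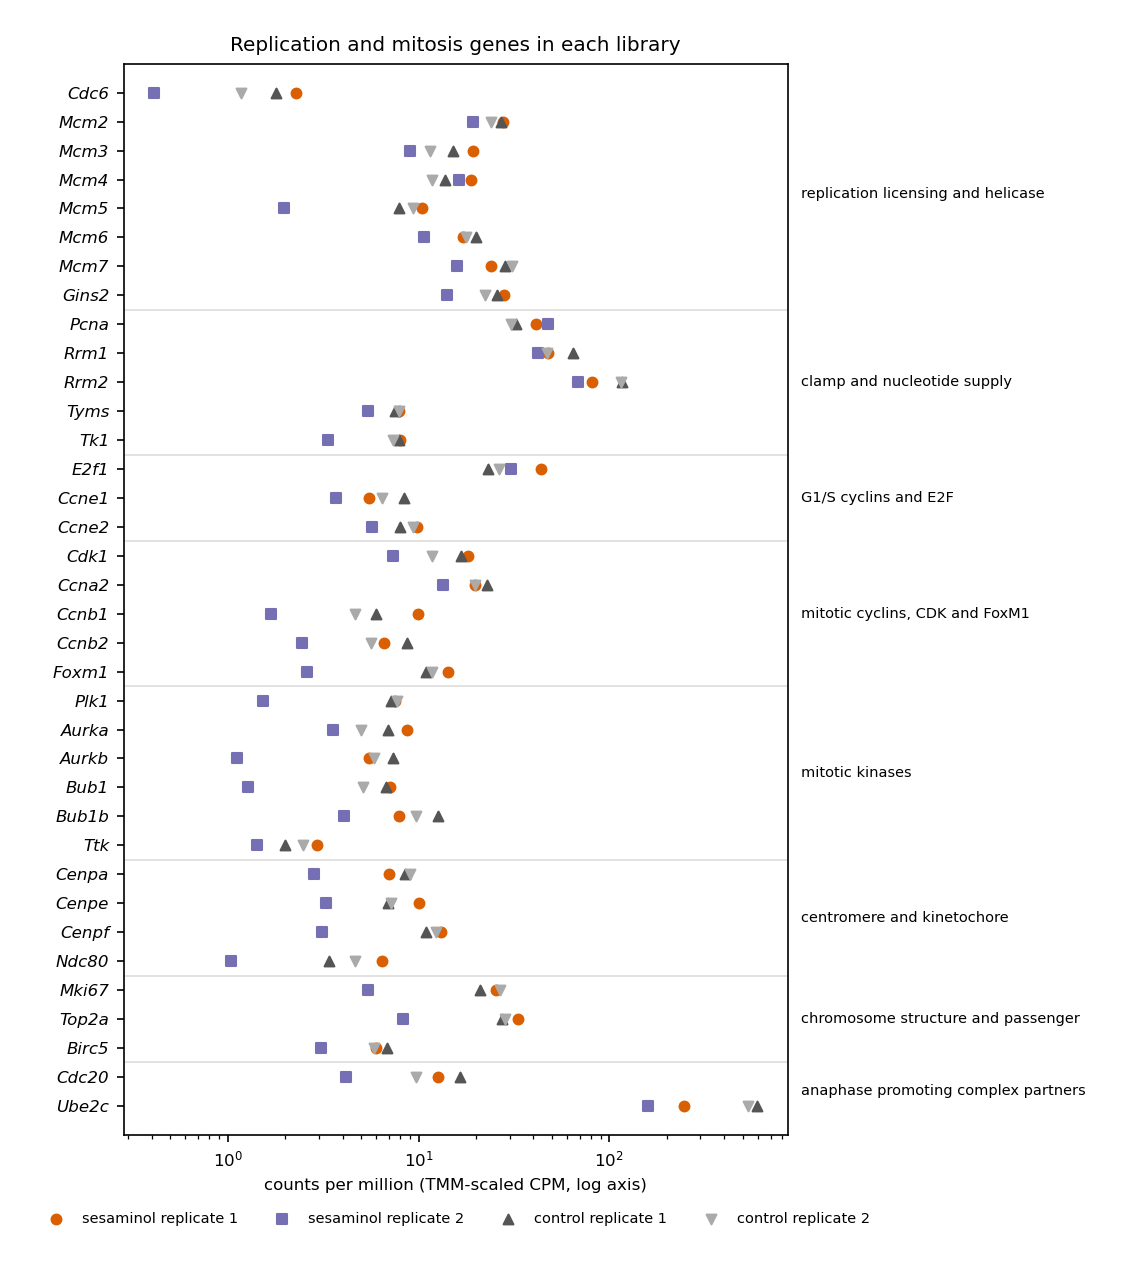
TMM-scaled CPM (log axis) of the 36 genes, 1 row a gene, ordered by role, in the 2 sesaminol and 2 control libraries, 1 point a library. Sesaminol replicate 2 (squares) is the lowest of the 4 libraries for 33 of the 36 genes, and sesaminol replicate 1 (circles) the highest for 20.

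The difference that ran through the set lay between the sesaminol libraries. Sesaminol replicate 2 was below sesaminol replicate 1 for 35 of 36 members, as it was for 49.1% of all genes tested. It was at least 2-fold lower for 20 of 36 and at least 4-fold lower for 11 of 36, which held for 3.95% and 0.711% of all genes. Between the controls no member differed in this way: control replicate 2 was at least 2-fold below control replicate 1 for 0 of 36, and for 3.9% of all genes. The members' median log2 ratio of sesaminol replicate 2 over replicate 1 was -1.18, with a range of -2.62 to 0.21. The 20 mitotic genes had a median of -1.61 and the 16 replication and G1/S genes a median of -0.58. These ratios compare 1 library with 1 library, so they carry no test of sesaminol. Sesaminol replicate 2 was the lowest of the 4 libraries for all 20 mitotic genes and for 13 of the 16 others, against 29.5% of all genes, and sesaminol replicate 1 the highest for 20 of 36, against 25.3%. Scaling by library size alone moved the median of all genes to 0.23 and that of the members to -0.96, with 33 of 36 below 0.

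Genes with and without a motif match overlapped widely in this ratio. The 14 genes with a CHR in their window had a median log2 ratio of -1.36, and the 16 without one a median of -0.8. This split follows role, since 13 of the 14 are mitotic and mitotic genes had the lower median (-1.61 against -0.58). Mitotic genes without a CHR match were Ccnb1 (-2.57), Bub1 (-2.49), Cenpe (-1.61) and Birc5 (-0.95). Mitotic genes with one ran from -2.62 for Ndc80 to -0.63 for Ube2c. Motif and role are not separated in these medians. For CCAAT boxes the medians were -1.3 with and -0.95 without, and for E2F cores -1.3 with and -1.26 without. Ccnb1, at -2.57, is an example of a gene with a wide gap and no TTTGAA in its window. Mcm2, at -0.52, is one with a CHR match and a small gap (both named after their values were seen).

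**Figure D3:**
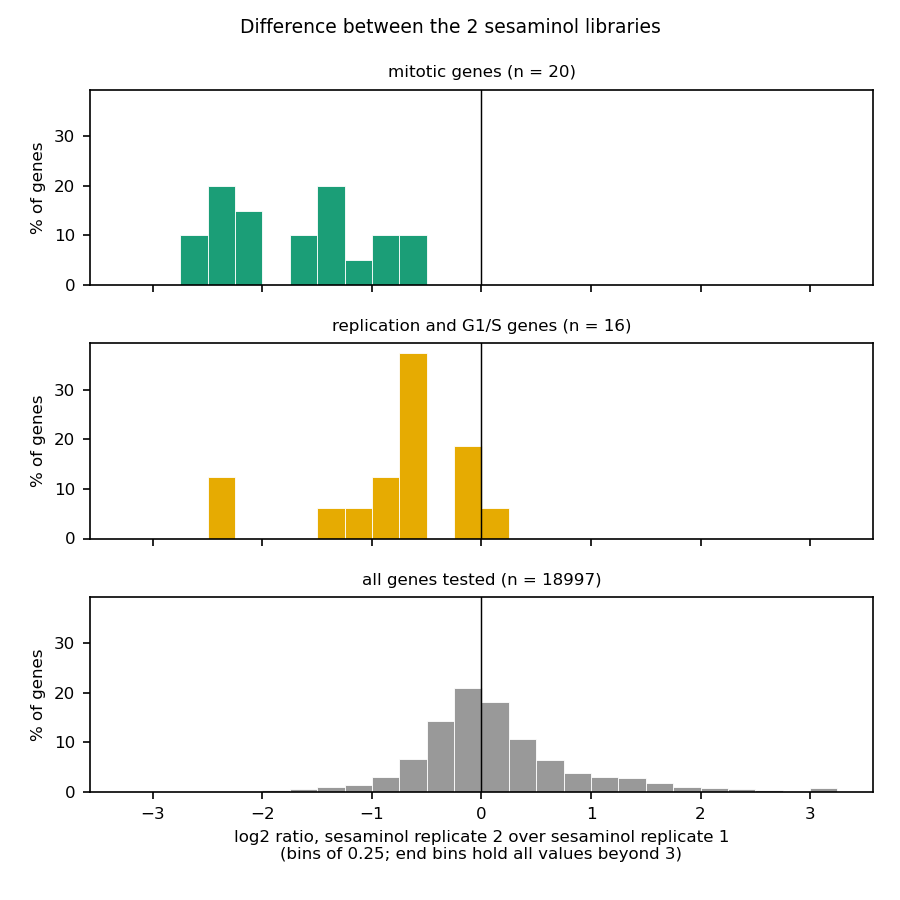
Distribution of the log2 ratio of sesaminol replicate 2 over sesaminol replicate 1 (horizontal axis, bins of 0.25) as a percentage of genes, for the 20 mitotic genes, the 16 replication and G1/S genes and 18997 genes tested (1 tested gene had no count in either library). All 20 mitotic genes lie below 0, with a median of -1.61, while the bulk of all genes centres on 0.01.

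Set against the same 2 controls, the sesaminol libraries gave different calls. With sesaminol replicate 2 alone, 25 of 36 members fell and 1 rose, where 13.3% and 9.36% of all genes did so. With sesaminol replicate 1 alone, 2 fell and 2 rose, where 7.04% and 8.06% of all genes did. Each of these fits takes the lone library to vary as the controls do, and both share the controls, so their values are given side by side and the difference between them was not tested. Among the mitotic genes 18 of 20 fell in sesaminol replicate 2, and among replication and G1/S genes 7 of 16.

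**Figure D4:**
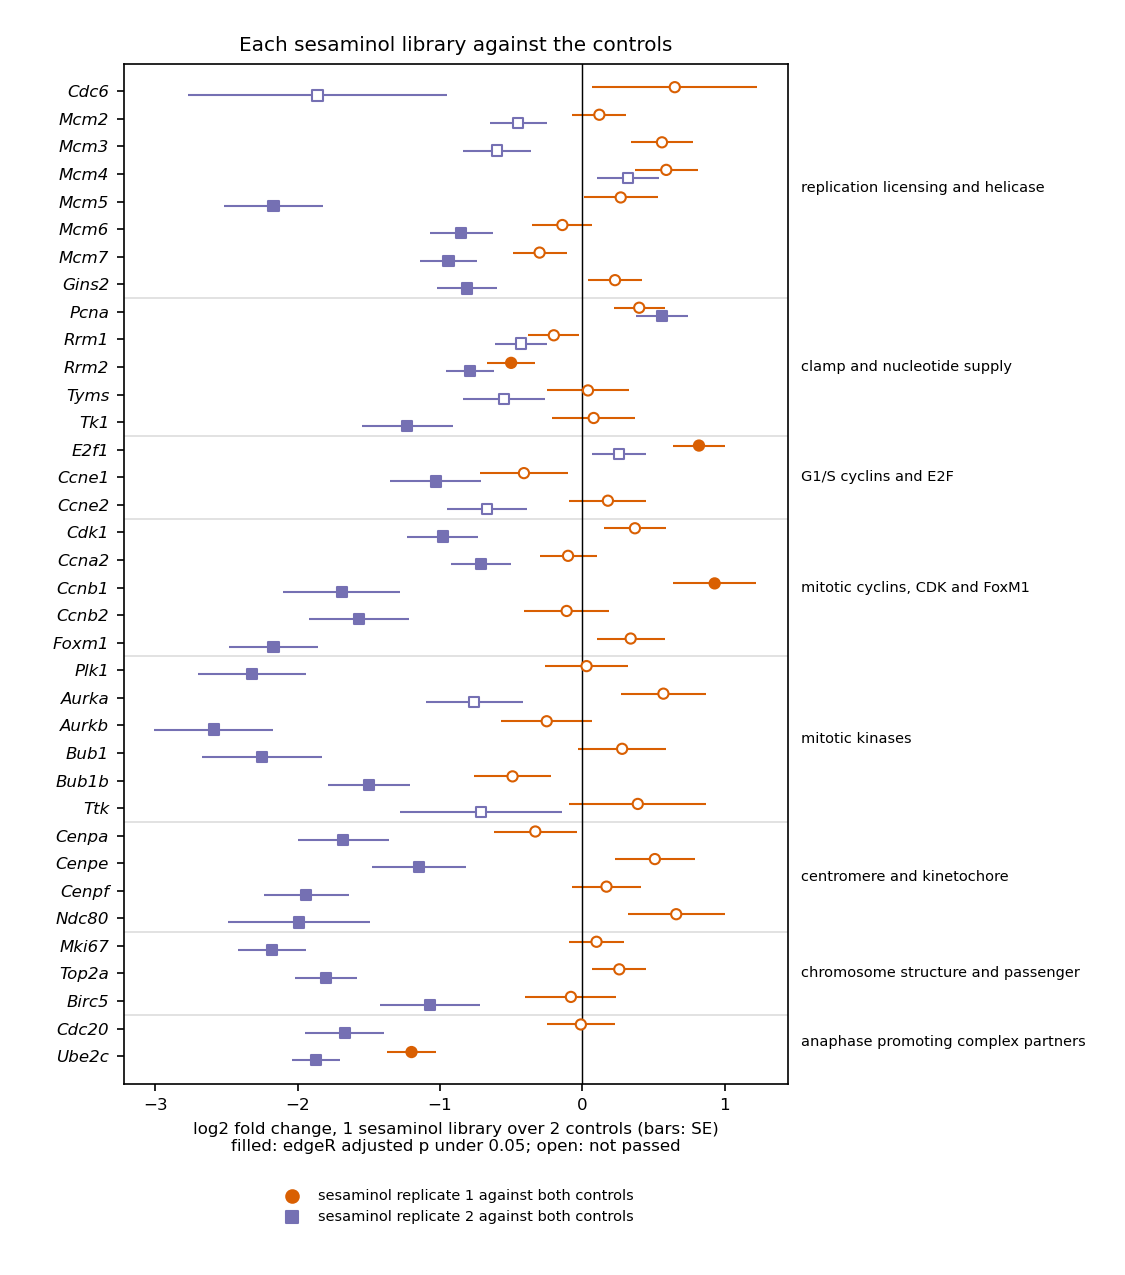
Log2 fold change (horizontal axis, bars are SE) of each of the 36 genes in sesaminol replicate 1 (circles) and sesaminol replicate 2 (squares), each against the same 2 controls; filled symbols have an edgeR adjusted p under 0.05. For Ccnb1 the 2 libraries lie on opposite sides of 0, at 0.93 and -1.69, both past the threshold.

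Origin licensing genes were split. Mcm5, a subunit of the replicative helicase, stood at 1.98 CPM in sesaminol replicate 2 and 10.4 CPM in replicate 1, against 7.94 and 9.35 CPM in the controls. Cdc6, which loads that helicase, had 0.41 CPM in sesaminol replicate 2 and 2.28 CPM in replicate 1, against 1.79 and 1.17 CPM in the controls. For both, sesaminol replicate 2 was alone in being low, 5.29-fold and 5.55-fold below replicate 1. Cdc6 rested on 11 counts there, against 18 and 16 in the controls, and the 95% interval of its log2 ratio to replicate 1 ran from -3.6 to -1.46. Against both controls, sesaminol replicate 2 alone was at -1.86 ± 0.91 (SE, log2) for Cdc6 and -2.17 ± 0.35 for Mcm5, so the lower level of Cdc6 is the less certain. The other helicase subunits differed less: Mcm4 had 16.3 CPM in sesaminol replicate 2 and 18.9 CPM in replicate 1, against 13.7 and 11.7 CPM in the controls, so that both sesaminol libraries were the higher pair. Mcm2, Mcm3, Mcm6 and Mcm7 were 1.44-fold to 2.15-fold lower in sesaminol replicate 2 than in replicate 1. None of these 6 subunits passed in the comparison of the groups (edgeR adjusted p from 0.209 for Mcm7 to 0.955 for Mcm3). Gins2, part of the complex that joins the helicase at firing, had 14.1 CPM in sesaminol replicate 2 and 28.1 CPM in replicate 1, against 25.7 and 22.3 CPM in the controls.

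Genes of the clamp and of nucleotide supply departed least between the sesaminol libraries, with a median log2 ratio of -0.24. Pcna, the sliding clamp of the polymerases, was the member that was higher in sesaminol replicate 2, at 47.6 CPM and 41.2 CPM in replicate 1, against 32.4 and 30.5 CPM in the controls. Both sesaminol libraries were above both controls, and the log2 fold change of 0.50 ± 0.17 (SE) did not pass (edgeR adjusted p = 0.142). Its value is uncertain in so far as reads are shared with the pseudogene Pcna-ps2, which held 1430 and 976 counts in sesaminol replicates 2 and 1 and 454 and 542 in the controls, more than Pcna itself in every library. Rrm2, the small subunit of ribonucleotide reductase, had 68.9 and 81.6 CPM in sesaminol replicates 2 and 1, against 116 and 115 CPM in the controls. It averaged 75.2 ± 8.98 CPM with sesaminol and 116 ± 1.1 CPM in controls (SD, n = 2 each). The groups did not overlap, and the log2 fold change of -0.62 ± 0.17 (SE) missed the threshold (edgeR adjusted p = 0.0675, and 0.0376 by DESeq2). Rrm1, the large subunit, stood at 42.4 and 48.0 CPM in sesaminol replicates 2 and 1, against 64.4 and 47.2 CPM. Tk1, a thymidine kinase whose transcript is known to follow S phase, had 3.36 CPM in sesaminol replicate 2 and 8.04 CPM in replicate 1, against 7.94 and 7.38 CPM in the controls. The thymidylate synthase gene Tyms was 1.45-fold lower in sesaminol replicate 2 than in replicate 1.

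At the passage from G1 to S, E2f1 and the E cyclins did not move together. E2f1, the activator of S phase genes, had 30.6 CPM in sesaminol replicate 2 and 43.6 CPM in replicate 1, against 23.2 and 26.4 CPM in the controls. Both sesaminol libraries were above both controls, with a log2 fold change of 0.58 ± 0.21 (SE, edgeR adjusted p = 0.176). In sesaminol replicate 1 alone E2f1 rose by 0.82 ± 0.18 (edgeR adjusted p = 0.00014), and in replicate 2 alone its value was 0.26 ± 0.19 (0.348). Ccne1, a cyclin that activates Cdk2, had 3.69 and 5.49 CPM in sesaminol replicates 2 and 1, against 8.34 and 6.43 CPM, and Ccne2, its close relative, 5.67 and 9.84 CPM, against 8.04 and 9.35 CPM. Thus Ccne1 was lower in both sesaminol libraries than in either control, and Ccne2 in sesaminol replicate 2 alone; in the comparison of the groups neither passed (edgeR adjusted p = 0.358 and 0.868).

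Among the cyclins that carry cells into mitosis, Ccnb1 differed most between the sesaminol libraries. Ccnb1 (ENSMUSG00000041431, chromosome 13, 100778650 to 100786570, GRCm38), which encodes cyclin B1, had 1.68 CPM in sesaminol replicate 2 and 9.98 CPM in replicate 1, against 5.96 and 4.67 CPM in the controls. The sesaminol libraries lay on either side of the controls and 5.95-fold apart. These values are uncertain in so far as reads are shared with the pseudogene Ccnb1-ps, which was not tested. Ccnb1-ps held 22 and 42 counts in sesaminol replicates 2 and 1 and 14 and 33 in control replicates 1 and 2. Ccnb1 held 45 and 149, and 60 and 64, in the same order. Against both controls, Ccnb1 fell by 1.69 ± 0.41 (SE, log2) in sesaminol replicate 2 (edgeR adjusted p = 0.000448) and rose by 0.93 ± 0.29 in sesaminol replicate 1 (edgeR adjusted p = 0.0144). With both, the change came to 0.10 ± 0.67 (edgeR adjusted p = 0.97). Foxm1, the transcription factor of the G2 genes, had 2.61 CPM in sesaminol replicate 2 and 14.3 CPM in replicate 1, against 10.9 and 11.8 CPM in the controls. Cdk1, the kinase that cyclin B activates, had 7.38 and 18.2 CPM in sesaminol replicates 2 and 1, against 16.7 and 11.8 CPM. Ccnb2 was 2.67-fold lower in sesaminol replicate 2 than in replicate 1 and Ccna2, cyclin A2, 1.47-fold. The pseudogene Ccnb2-ps held 34 and 10 counts in sesaminol replicates 2 and 1, where Ccnb2 held 66 and 98, and whether reads were shared was not tested. All 5 genes of this role fell in sesaminol replicate 2 alone, and in sesaminol replicate 1 alone only Ccnb1 passed. In each of them sesaminol replicate 2 was the lowest library.

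Mitotic kinases were low in sesaminol replicate 2 as well, in all 6 cases. Plk1, the polo-like kinase, had 1.53 CPM in sesaminol replicate 2 and 7.57 CPM in replicate 1, against 7.15 and 7.74 CPM in the controls. Aurkb, the kinase of the chromosomal passenger complex, had 1.12 CPM in sesaminol replicate 2 and 5.49 CPM in replicate 1, against 7.35 and 5.84 CPM. For each, the other libraries lay close together, and sesaminol replicate 2 was 4.95-fold and 4.91-fold below replicate 1. Bub1, a checkpoint kinase at kinetochores, was likewise lowest in sesaminol replicate 2, with 1.27 and 7.10 CPM in sesaminol replicates 2 and 1, against 6.75 and 5.11 CPM. The checkpoint gene Bub1b had 4.06 and 7.90 CPM in sesaminol replicates 2 and 1, against 12.7 and 9.71 CPM. For Bub1b, as for Aurkb, both sesaminol libraries were below both controls. The log2 fold change of Bub1b was -0.92 ± 0.36 (SE, edgeR adjusted p = 0.213). Aurka and Ttk, the spindle pole kinase and the checkpoint kinase Mps1, were 2.43-fold and 2.08-fold lower in sesaminol replicate 2 than in replicate 1. Those were the mitotic genes that did not pass in sesaminol replicate 2 alone (edgeR adjusted p = 0.097 and 0.414).

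By role, the median log2 ratio between the sesaminol libraries was lowest for chromosome structure and passenger genes (-2.01) and centromere and kinetochore genes (-1.84). Mitotic kinases were close (-1.79), and single genes of other roles had gaps as wide, such as Ccnb1 (-2.57) and Bub1 (-2.49). Ndc80, which binds microtubules at the kinetochore, had 1.04 CPM in sesaminol replicate 2 and 6.43 CPM in replicate 1, against 3.38 and 4.67 CPM in the controls. At 6.16-fold it was the widest gap among the 36, from 28 counts in sesaminol replicate 2 and 96 in replicate 1 (95% interval of the log2 ratio -3.29 to -2). Cenpf, a large protein of the outer kinetochore, had 3.13 and 13.1 CPM in sesaminol replicates 2 and 1, against 10.9 and 12.4 CPM. Cenpe, a kinetochore motor, had 3.28 and 10 CPM, against 6.95 and 7.16 CPM. For these 3, sesaminol replicate 1 was the highest library and replicate 2 the lowest. Cenpa, the histone H3 variant of centromeres, had 2.83 and 6.96 CPM in sesaminol replicates 2 and 1, against 8.54 and 9.06 CPM, both below the controls. Mki67, which encodes the proliferation antigen Ki-67, had 5.44 CPM in sesaminol replicate 2 and 25.6 CPM in replicate 1, against 21.1 and 26.7 CPM in the controls. Top2a, the topoisomerase that untangles chromosomes, had 8.28 CPM in sesaminol replicate 2 and 33.3 CPM in replicate 1, against 27.4 and 28.4 CPM. Against the controls, the log2 fold changes of these 2 proliferation markers were -2.18 and -1.80 in sesaminol replicate 2 alone. In sesaminol replicate 1 alone they were 0.10 and 0.26. With both sesaminol libraries they came to -0.65 ± 0.54 and -0.45 ± 0.49 (SE), and neither passed (edgeR adjusted p = 0.635 and 0.747). Birc5, survivin of the passenger complex, was 1.93-fold lower in sesaminol replicate 2 than in replicate 1.

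Ube2c, the member that fell in the comparison of the groups, cannot be read by itself. It encodes the ubiquitin-conjugating enzyme of the anaphase promoting complex, lies on chromosome 2 from 164769898 to 164778822 (GRCm38) and overlaps Tnnc2, the fast troponin C gene of muscle, on the opposite strand over 592 exonic bases. Ube2c stood at 159 and 246 CPM in sesaminol replicates 2 and 1, against 597 and 534 CPM in the controls. Its log2 fold change was -1.48 ± 0.24 (SE), with an edgeR adjusted p of 0.00878. Tnnc2 stood at 157 and 225 CPM, against 587 and 527 CPM, where the log2 change came to -1.54 ± 0.23 (SE) at an edgeR adjusted p of 0.00592. The counts of Tnnc2 equalled 98.7% and 91.7% of those of Ube2c in sesaminol replicates 2 and 1 and 98.3% and 98.7% in the controls. What remained after subtraction was 55 and 304 counts in sesaminol replicates 2 and 1 and 100 and 98 counts in the controls, or 2.05 and 20.4 CPM against 9.93 and 7.16 CPM. This remainder is that of Ube2c only if every Tnnc2 read was also counted for Ube2c, which the deposited counts do not show; without strand, reads of the pair cannot be told apart. In it sesaminol replicate 2 was the lowest and replicate 1 the highest library. Cdc20, the activator of the same complex, had 4.18 and 12.7 CPM in sesaminol replicates 2 and 1, against 16.5 and 9.64 CPM in the controls. Cdc20 is itself 1 of 8 members marked for possible shared reads because an overlapping gene has a sizeable count, which also include Mcm7, Gins2, Tk1, Ccne2, Ccna2, Foxm1 and Ube2c. Over the 28 members without the mark, 0 fell and 0 rose in the comparison of the groups (4 of 28 at an unadjusted p under 0.05, against 17.9% of all genes; DESeq2 called Rrm2), 18 fell in sesaminol replicate 2 alone, and the median log2 ratio between the sesaminol libraries was -1.29.

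Levels in the controls spanned a wide range. Per kilobase of exon, Ube2c had 218 CPM (with Tnnc2 reads), Rrm2 41.7 CPM and Pcna 13.1 CPM, and the other 33 genes had 0.283 CPM for Cdc6 to 7.86 CPM for E2f1. The mitotic genes other than Ube2c were all at or under 6.99 CPM per kilobase, the value of Cdc20. Low counts limit what could be seen: for Ttk and Cdc6 the libraries held 20 to 44 and 11 to 34 counts.

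Beyond the 36, a list of 127 other genes of replication and mitosis was read from the same fit. All 127 were tested, and 2 rose and 3 fell, where 2.72% and 3.24% of all genes tested did so. Their median log2 fold change was -0.03. Those that rose were Gins3 and Wee1. Gins3, a partner of Gins2 in the same complex, had 28.3 and 37.6 CPM in sesaminol replicates 2 and 1, against 15.9 and 16.2 CPM in the controls (edgeR adjusted p = 0.0187). Wee1, the kinase that holds Cdk1 inactive before mitosis, had 69.4 and 43.5 CPM in sesaminol replicates 2 and 1, against 19.2 and 19.6 CPM, and its log2 change of 1.55 ± 0.23 (SE) had an edgeR adjusted p of 0.00619. The sesaminol libraries were above the controls for each. Those that fell were E2f8, Spc24 and Cenpp. E2f8, a repressor of the E2F family, had 9.62 and 20.3 CPM in sesaminol replicates 2 and 1, against 36.2 and 39.6 CPM (edgeR adjusted p = 0.0344). Spc24, a partner of Ndc80, had 1.86 and 2.14 CPM, against 7.94 and 5.04 CPM (edgeR adjusted p = 0.046). Cenpp had 296 and 279 CPM, against 479 and 514 CPM (edgeR adjusted p = 0.044). The matrix gene Ogn lies within Cenpp on the opposite strand, with 0 exonic bases in common and a count equal to 87.5% of that of Cenpp; whether reads were shared was not tested. Without control replicate 1 these counts were 1 rise and 1 fall, without control replicate 2 they were 1 and 0, and without sesaminol replicates 1 and 2 they were 4 and 25, and 7 and 3.

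Between the sesaminol libraries the other genes leaned the same way but less far. Sesaminol replicate 2 was below replicate 1 for 101 of 127 and at least 2-fold below for 24 of 127. Of all genes tested, 49.1% and 3.95% did so. The median log2 ratio of the 127 was -0.39. By role, the 7 genes of cytokinesis and the passenger complex had the lowest median (-0.99), followed by replication-coupled chromatin (-0.78), mitotic entry and exit (-0.59) and kinetochore and checkpoint (-0.52). Condensin (-0.20), nucleotide supply (-0.17) and the E2F, MuvB and B-Myb group (-0.05) had medians nearer 0. That last group was spread widely, from -2.03 to 0.6. Of its 11 genes, sesaminol replicate 2 was below replicate 1 for 7 and at least 2-fold below for 2. These were Mybl2, which encodes B-Myb (-2.03), and E2f8 (-1.08), both named after their values were seen. Mybl2 had 0.82 CPM in sesaminol replicate 2 and 3.35 CPM in replicate 1, from 22 and 50 counts. Among the 127 the gap was largest for Sgo1, the protector of centromere cohesion. It had 0.522 CPM in sesaminol replicate 2 and 6.16 CPM in replicate 1, against 1.39 and 2.19 CPM in the controls. Anln, the cytokinesis scaffold anillin, had 8.28 and 23.2 CPM, against 17.3 and 19.9 CPM, and Uhrf1, which brings Dnmt1 to new DNA, 3.21 and 8.70 CPM, against 9.73 and 10.1 CPM. Sgo1, Anln and Uhrf1 were named after their values were seen. In all 3 sesaminol replicate 2 was the lowest library. Polymerases and the clamp loader had a median of -0.29, and Pole, the catalytic subunit of the leading-strand polymerase, was the gene of that list that was at least 2-fold lower.

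Other measures moved with these libraries. For the counts in these lists, the shares over all genes tested were 3.24% for a fall and 2.72% for a rise. Among 13 G1 cyclins, kinases and inhibitors 3 fell. Ccnd3, a D cyclin, had 295 and 401 CPM in sesaminol replicates 2 and 1, against 722 and 724 CPM in the controls (edgeR adjusted p = 0.0271), and Cdk2, the partner of the E cyclins, 41.8 and 48.7 CPM, against 77.7 and 76.7 CPM (edgeR adjusted p = 0.0266). For each, both sesaminol libraries were below both controls. The D cyclins Ccnd1 and Ccnd2 had 63.3 and 60.3 CPM in sesaminol replicate 2 and 110 and 118 CPM in replicate 1, against 69.8 and 83.8 CPM in control replicate 1 and 70.8 and 128 CPM in control replicate 2. Neither passed the test (edgeR adjusted p = 0.63 and 0.779). Ccnd1, Ccnd2, Ccnd3 and Cdkn1c are marked for overlap with other counted genes, so their levels are uncertain. Cdkn1c, the CDK inhibitor p57, had 8.13 and 38.4 CPM in sesaminol replicates 2 and 1, against 200 and 190 CPM in the controls (edgeR adjusted p = 0.0135), while the inhibitor Cdkn1a was at 1660 and 1400 CPM, against 1990 and 2050 CPM. Of 6 myoblast markers 2 fell, Myod1 and Itga7 (edgeR adjusted p = 0.0307 and 0.0487), and the summed level was 2670 and 4350 CPM in sesaminol replicates 2 and 1, against 5810 and 5660 CPM. Of 10 myotube markers 8 fell, with the smallest adjusted p for Myh8, Actn2 and Mb (0.000319, 0.000319 and 0.00041 by edgeR), and their summed level was 3940 and 4560 CPM in sesaminol replicates 2 and 1, against 10800 CPM in each control. Both sesaminol libraries were below both controls for 10 of 10 myotube and 5 of 6 myoblast markers, and for 5 of 20 mitotic genes. Of all genes tested, 22.8% lay so. The median log2 ratio between the sesaminol libraries was -0.32 for myotube markers, -0.7 for myoblast markers and -1.61 for mitotic genes. The myoblast marker Myf5 had 26.3 and 50.4 CPM in sesaminol replicates 2 and 1, against 32.6 and 32.9 CPM in the controls. The summed level of 5 macrophage markers was 34.1 and 25.8 CPM in sesaminol replicates 2 and 1, against 20.8 and 17.2 CPM, and 1 of 5, Cd68, rose. Their defining member Ptprc was at 1.53 and 0.536 CPM, against 0.993 and 0.876 CPM. Of 4 endothelial markers 3 were tested, with summed levels of 6.71 and 4.08 CPM, against 5.96 and 4.97 CPM, and 0 rose or fell (0 at an unadjusted p under 0.05 by edgeR). The part of these levels, of depth and of the mitochondrial share in the differences between the sesaminol libraries was not tested.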

How the data were processed

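Poly(A)-selected RNA was sequenced, per the labels' protocols. What the authors deposited is a table of gene-level counts of reads in 4 libraries, with no normalization. Per the submitters' processing notes featureCounts, fastp, edgeR, Picard, FastQC and MultiQC were used, on GRCm38. For aligner, strand setting and annotation release: not given in the sources used here. Even numbers made up 75.8% to 79.6% of the counts from 1 to 12; should mates have been counted one by one, intervals are too narrow. Intervals cover counting error only.

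The filter was filterByExpr with a minimum count of 10 and a minimum total of 15, which 18998 genes passed. After TMM scaling the groups were compared in R 4.3.3 with the quasi-likelihood functions glmQLFit and glmQLFTest of edgeR 4.0.16, with no covariate, two-sided, with Benjamini-Hochberg adjustment over all genes and a threshold of 0.05. SE is the log2 fold change divided by the square root of F. CPM use TMM-scaled totals of the genes kept; 3 counts correspond to 0.201, 0.112, 0.298 and 0.219 CPM in sesaminol replicates 1 and 2 and control replicates 1 and 2. Ratios between 2 libraries are of CPM with no pseudocount, and their 95% intervals are exact binomial (Clopper-Pearson). Positions and exonic lengths are from GENCODE M21 (GRCm38; 52489 of 52636 identifiers matched). The mark for shared reads means that a gene lying over it holds 20% or more of its count; a gene spanning it counts only with its excess over the genes inside. The mark does not show that a read was shared. Every member is named; of the other pathway lists, the genes that passed among the 3 with the smallest adjusted p, of marker lists any gene, and promoters by the widest gap between the sesaminol libraries, with exceptions stated. The libraries of a group were not duplicates (chi-square per degree of freedom 39.1 for sesaminol and 6.3 for control). The members and lists were chosen with earlier results of these data known. Alternatives were other scalings, filters, DESeq2 1.42.0, limma-voom (limma 3.58.1), a replicate block, thinned or halved counts and leaving out each library. Figures used matplotlib 3.10.9.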

Additional observations from a re-analysis of the deposited data

How the results depend on the processing

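The count of members that fell was 1 and became 2 with upper quartile scaling, DESeq2, the replicate block or halved counts (the last chosen after seeing the data); in each case the added gene was Rrm2. It was 0 with members marked for shared reads left out, and 1 to 25 when a library was left out (25 without sesaminol replicate 1). The count that rose was 0, and 0 to 2 when a library was left out. Of the 127 other genes, 2 rose and 3 fell, and with a library left out 1 to 7 rose and 0 to 25 fell. Over all genes, 516 rose and 615 fell; with no filter on low counts 928 and 985 did and with the replicate block 893 and 982, and with a library left out 163 to 1918 rose and 276 to 2724 fell. The members' median log2 ratio of sesaminol replicate 2 over replicate 1 was -1.18, and -1.1 with upper quartile scaling, -0.96 with library size alone and -1.29 without genes marked for shared reads (the last chosen after seeing the data). The replicate numbers mark no stated pairing, and across genes the log2 ratios of replicate 2 over 1 in the sesaminol and control groups correlated at -0.0585.

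Of the 36 members, 20 changed sign under some alternative, and with a library left out the log2 fold change spanned -1.86 to 0.65 for Cdc6, -0.45 to 0.12 for Mcm2, -0.6 to 0.56 for Mcm3, -2.17 to 0.27 for Mcm5, -0.81 to 0.23 for Gins2, -0.55 to 0.04 for Tyms, -1.23 to 0.08 for Tk1, -0.67 to 0.18 for Ccne2, -0.98 to 0.37 for Cdk1 and -1.69 to 0.93 for Ccnb1. It spanned -2.17 to 0.34 for Foxm1, -2.32 to 0.03 for Plk1, -0.76 to 0.57 for Aurka, -2.25 to 0.28 for Bub1, -0.71 to 0.39 for Ttk, -1.15 to 0.51 for Cenpe, -1.94 to 0.17 for Cenpf, -1.99 to 0.66 for Ndc80, -2.18 to 0.1 for Mki67 and -1.8 to 0.26 for Top2a. The lowest value came without sesaminol replicate 1 and the highest without sesaminol replicate 2 in all 20. Other reversals were those of Mcm3 with limma-voom (-0.09) and thinned counts (-0.05), Ccnb1 with limma-voom (-0.66) and the replicate block (-0.32), Aurka with upper quartile scaling (-0.02), limma-voom (-0.2), the replicate block (-0.07) and thinned counts (0), and Ttk with thinned counts (0.13), and the cause was not tested.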
